A study of Homo sapiens with 4 samples.

Results

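The tubulin isotypes described here are 10 of the 20137 genes in the deposited tables: TUBA1A, TUBA1B, TUBA1C and TUBA4A (alpha), TUBB, TUBB2A, TUBB3, TUBB4B and TUBB6 (beta), and TUBG1 (gamma). They were chosen by gene symbol, and their values are sums over the transcripts of a gene ID. The libraries came from MDA-MB-231, a mesenchymal line of triple-negative breast cancer. The culture medium was L-15 with serum, and RNA was sequenced from 2 control libraries and 2 libraries with a knockdown of AURKA, the mitotic kinase Aurora A. The titles name the groups shC and shA, and the series design calls the controls mock-transfected, so whether they carried a hairpin is unclear. Neither the hairpin sequence nor the time after knockdown is stated. The design describes 2 biological replicates, and nothing says whether they were cultured on separate days, so p-values measure the spread between these samples only.

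Alpha- and beta-tubulin form the dimer that polymerises into microtubules, and gamma-tubulin sits in the ring complex that nucleates them. Isotypes of a class are close to each other along most of the protein and differ mainly in an acidic C-terminal tail, where tyrosine removal, polyglutamylation and polyglycylation take place. Tubulin mRNA is also under feedback: when free dimers accumulate, TTC5 binds the first residues of nascent tubulin on the ribosome and recruits SCAPER and the CCR4-NOT deadenylase, and the mRNA decays. Aurora A acts at centrosomes and spindle poles, where much of this tubulin is used in mitosis.

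The coding ends of the beta isotypes, which carry the variable tail, are shown first, since such differences also set how well reads could be assigned. Each is the last 60 coding bases before the stop codon of the isotype's most abundant complete coding transcript (GENCODE 29, GRCh38), with the last codon in capitals. That codon encodes alanine in TUBB, TUBB2A and TUBB4B, lysine in TUBB3 and glycine in TUBB6.
TUBB: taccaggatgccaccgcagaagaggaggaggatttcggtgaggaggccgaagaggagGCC
TUBB2A: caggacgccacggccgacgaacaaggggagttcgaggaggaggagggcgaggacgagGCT
TUBB3: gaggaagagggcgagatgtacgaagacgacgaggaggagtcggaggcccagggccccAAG
TUBB4B: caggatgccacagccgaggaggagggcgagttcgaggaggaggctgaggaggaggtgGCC
TUBB6: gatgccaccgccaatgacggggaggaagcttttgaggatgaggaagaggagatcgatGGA

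The alpha isotypes besides TUBA4A shared 95.9% to 97.2% of their coding bases with each other, and TUBA4A shared 84.4% to 85.7% with them. Coding identity between beta isotypes ran from 81.0% (TUBB and TUBB6) to 87.7% (TUBB2A and TUBB3). In the whole transcript, 41.1% of the 50-base words of TUBA1A, 62.7% of those of TUBA1B and 25.1% of those of TUBA1C also stood in transcripts of other genes. The share was 65.5% for TUBB2A, of which its neighbour TUBB2B held most (60.3% of all words), 9.89% for TUBB4B, 5.25% for TUBA4A and 0.993% for TUBB6. For TUBB it was 18.2%, mostly the pseudogene TUBBP1, and for TUBG1 29.9%, mostly TUBG2. TUBB3 shared 89.4% with its own read-through gene (ENSG00000198211), which the files list under the same symbol at 0.0264 to 0.0791 FPKM and which was kept apart. The split of reads among TUBA1A, TUBA1B and TUBA1C, between TUBB2A and TUBB2B, and between TUBB3 and its read-through gene is therefore uncertain. TUBB4B, TUBB6 and TUBA4A rest mostly on words of their own.

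The start of the coding sequence is what the mRNA decay pathway reads, as protein. In the first 30 coding bases, with the first 4 codons in capitals, the alpha and beta genes encode methionine, arginine, glutamate and then cysteine (alpha) or isoleucine (beta). TUBG1 has an added proline codon after the first.
TUBA1B: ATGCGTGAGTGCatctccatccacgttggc
TUBA4A: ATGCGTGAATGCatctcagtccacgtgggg
TUBB: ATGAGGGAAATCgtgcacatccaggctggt
TUBB4B: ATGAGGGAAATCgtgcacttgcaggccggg
TUBG1: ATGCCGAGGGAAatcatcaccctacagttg

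The values were taken to be FPKM, fragments per kilobase and 1e6 fragments, a scale on which levels of different genes can be set side by side. The summed FPKM of a library was 718978 to 761641, and the estimated depth 17.4 to 27.6 M fragments. Mitochondrial genes held between 16.0% and 19.0% of the total, the most in knockdown replicate 1. AURKA itself had 124 and 99.1 FPKM in control replicates 1 and 2 and 22.3 and 23.7 FPKM in the knockdown, 4.86-fold lower. VIM and CD44, which mark this line, were at 1701 to 2068 and 212 to 233 FPKM, with SPARC at 16.2 to 22.7 FPKM, while CDH1, ESR1 and PGR stayed under 0.3 FPKM, EPCAM at 2.49 to 3.30 and ERBB2 at 16.5 to 20.2 FPKM.

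TUBA1B, the housekeeping alpha isotype, was the most abundant tubulin mRNA, the 75th highest mean level among 12136 tested genes. It stood at 1368 and 1574 FPKM in control replicates 1 and 2 and at 1201 and 1207 FPKM in knockdown replicates 1 and 2. TUBB (642 to 718 FPKM over the 4 libraries), TUBB4B (422 to 602) and TUBA1C (307 to 396) followed, and the ranges of these 4 genes did not overlap. TUBG1 came next at 79.4 to 91.4 FPKM, a level between the major and the minor isotypes. TUBB6 (49.6 to 75.2 FPKM), TUBA1A (47.8 to 70.9) and TUBA4A (40.5 to 48.3) overlapped with their neighbours in this order. TUBB3, known as the neuronal beta isotype and often expressed in carcinomas, was at 23.6 to 25.5 FPKM and TUBB2A at 16.4 to 19.3 FPKM. Of the neuronal genes looked up beside TUBB3, ELAVL3, SYP and RBFOX3 were under 0.4 FPKM in every library. MAP2 was at 4.81 and 3.45 FPKM in control cells and 2.75 and 2.31 FPKM after knockdown. Not all genes known from neurons were low: over the 4 libraries MAPT (tau) was at 7.94 to 12.3 FPKM and MAP1B at 131 to 158 FPKM. The lowest estimated number of fragments behind a member's leading transcript was 466 (TUBB2A in control replicate 1), a counting error of 4.63%, against 0.516% at most for TUBA1B.

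**Figure D1:**
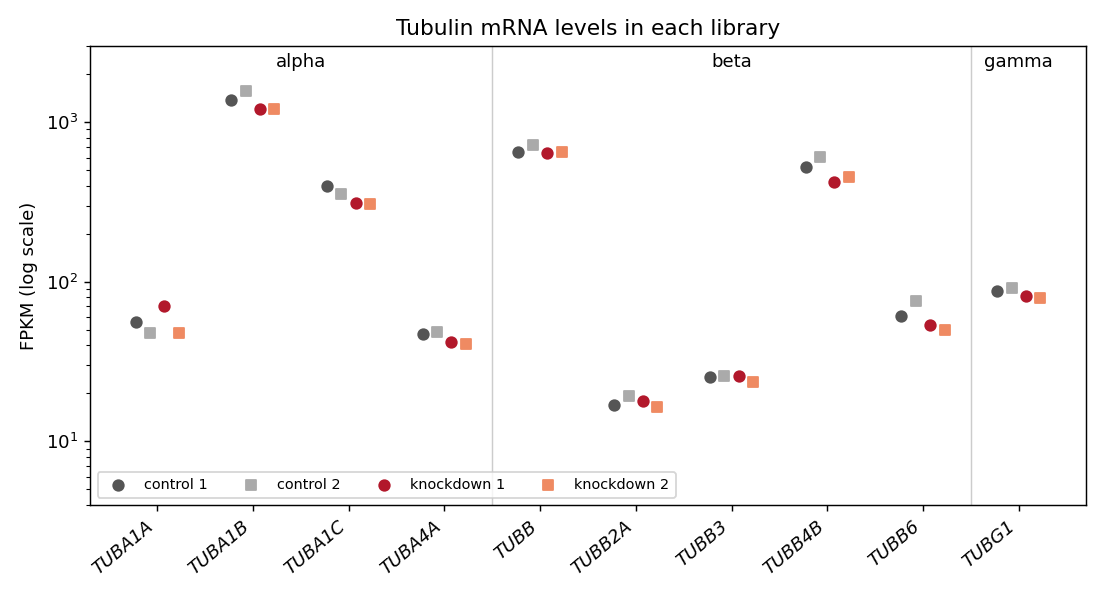
Level of each tubulin gene (FPKM, log axis) in control replicates 1 and 2 (grey) and AURKA knockdown replicates 1 and 2 (red and orange), 1 point per library. TUBA1B lies highest, at 1201 to 1574 FPKM, and TUBB2A lowest, at 16.4 to 19.3 FPKM.

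The comparison of knockdown with control asks whether tubulin mRNA changes when AURKA is reduced. All 10 genes passed the filter on low values, and 0 of 10 passed the test at an adjusted p under 0.05 (limma on log2(FPKM + 1), Benjamini-Hochberg over 12136 genes). This fit called 0 genes in all (0.0%), and 2 of the 10 had an unadjusted p under 0.05, against 6.37% of all genes. Nor did AURKA, the targeted gene, pass in it (limma adjusted p = 0.0819), although its level was 4.86-fold lower. The tables of a replicate number share their row order and their set of transcripts and differ from those of the other number, so each number was taken as a quantification run of its own. No label names a run, and "run" stands below for the replicate number. That number is also the biological replicate's, so culture and processing cannot be told apart in this term. With the run added to the fit, again 0 of 10 passed, where 3.44% of all genes did, 1.9% as lower in the knockdown. At an unadjusted p under 0.05 that fit had 5 of the 10, against 22.1% of all genes.

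The direction was mostly downward. In 7 of the 10 genes each knockdown library was below each control, against 16.6% of all genes tested. Such genes are lower in both runs by definition, and no further member was (31.7% of all genes were). TUBB counts among the 7 by a narrow gap, 652.4 FPKM in control replicate 1 and 651.6 FPKM in knockdown replicate 2. The alternative scalings shift the libraries by more than that gap, so its groups overlap on those scales. The members were chosen with earlier results of these data known. The median log2 difference of the 10 was -0.18, beside 0.01 over all genes. In bulk RNA a smaller number of cells that express a gene strongly and less RNA per cell cannot be told apart. The 7 genes were read in the same 4 libraries, so they are not independent observations. Of them, TUBA1B and TUBA1C also share 56.6% and 25.1% of their 50-base words with other members. For the rest of the 7 that share was 5.92% or less.

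TUBB6 and TUBB4B, both beta isotypes, had the most negative differences. TUBB4B, a widely expressed isotype also used in cilia, had 525 and 602 FPKM in control cells and 422 and 455 FPKM after knockdown. Its means were 563.8 ± 54.4 and 438.1 ± 23.2 FPKM (SD, n = 2 each), 1.29-fold lower, and the groups did not overlap. The log2 difference was -0.36 (95% interval -0.69 to -0.03, limma adjusted p = 0.717), with -0.32 in run 1 and -0.41 in run 2. With the run as a term the adjusted p was 0.071. When values were also scaled to totals without mitochondrial genes, an alternative added after the data were seen, TUBB4B passed as lower (adjusted p = 0.0286, where 1.95% of all genes were called lower).

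TUBB6, the divergent beta isotype, had 61.2 and 75.2 FPKM in control cells and 53.4 and 49.6 FPKM after knockdown. That was 1.33-fold lower, without overlap, at a log2 difference of -0.39 (95% interval -0.76 to -0.03, limma adjusted p = 0.727, and 0.102 with the run as a term). The difference was -0.20 in run 1 and -0.59 in run 2. Part of that gap sits in 1 transcript, ENST00000590693, at 5.81 and 17.4 FPKM in control cells and 9.04 and 3.82 FPKM after knockdown. The leading transcript, ENST00000317702, was at 45.3 and 50.1 against 35.97 and 38.7 FPKM, and with it alone the log2 difference of TUBB6 was -0.35. Without control replicate 2 the difference of the whole gene was -0.25. With the run in the fit and upper-quartile scaling, also added after the data were seen, TUBB6 passed as lower (adjusted p = 0.0373, where 4.78% of all genes were called lower).

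TUBB, the major beta isotype, had a small difference in level. It had 652.4 and 718.4 FPKM in control cells and 642.0 and 651.6 FPKM after knockdown, so that the groups were separated by less than 1 FPKM. The log2 difference was -0.08 (95% interval -0.39 to 0.23, limma adjusted p = 0.948, and 0.640 with the run as a term), and it was -0.01 without control replicate 2 and -0.15 without control replicate 1. TUBB3 had 25.1 and 25.5 FPKM against 25.5 and 23.6 FPKM, and TUBB2A 16.8 and 19.3 FPKM against 17.9 and 16.4 FPKM. In both genes the groups overlapped, the sign differed between the runs, and the 95% interval ran from -0.36 to 0.27 for TUBB3 and from -0.43 to 0.29 for TUBB2A on the log2 scale.

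Among the alpha isotypes, TUBA1B, TUBA1C and TUBA4A were lower without overlap and TUBA1A was not. For TUBA1B the values given above make 1471 ± 145 and 1204 ± 4.49 FPKM (SD, n = 2 each), 1.22-fold lower. Its log2 difference was -0.28 (95% interval -0.63 to 0.06), with -0.19 in run 1 and -0.38 in run 2, and the 2 controls differed from each other by 0.20. Without control replicate 2 the difference was -0.18. TUBA1C, a close copy of it, also on chromosome 12, had 396 and 352 FPKM in control cells and 310 and 307 FPKM after knockdown, a log2 difference of -0.28 (95% interval -0.58 to 0.03). TUBA4A, the most divergent of these alpha isotypes in coding sequence, had 47.0 and 48.3 FPKM against 42.2 and 40.5 FPKM, 1.15-fold lower (log2 -0.20, 95% interval -0.49 to 0.09). The limma adjusted p of these 3 was 0.809, 0.781 and 0.848, and 0.186, 0.127 and 0.222 with the run as a term.

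TUBA1A, the isotype of developing neurons, went the other way on average, with 56.3 and 47.8 FPKM in control cells and 70.9 and 48.0 FPKM after knockdown. Its groups overlapped, and the log2 difference of 0.17 (95% interval -0.37 to 0.70) was made up of 0.33 in run 1 and 0.01 in run 2. It was -0.11 without knockdown replicate 1, 0.05 without control replicate 2, 0.28 without control replicate 1 and 0.44 without knockdown replicate 2. TUBG1, the gamma-tubulin of the ring complex, had 88.0 and 91.4 FPKM in control cells and 81.5 and 79.4 FPKM after knockdown, 1.11-fold lower without overlap (log2 -0.15, 95% interval -0.43 to 0.12, limma adjusted p = 0.869, and 0.3 with the run as a term).

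**Figure D2:**
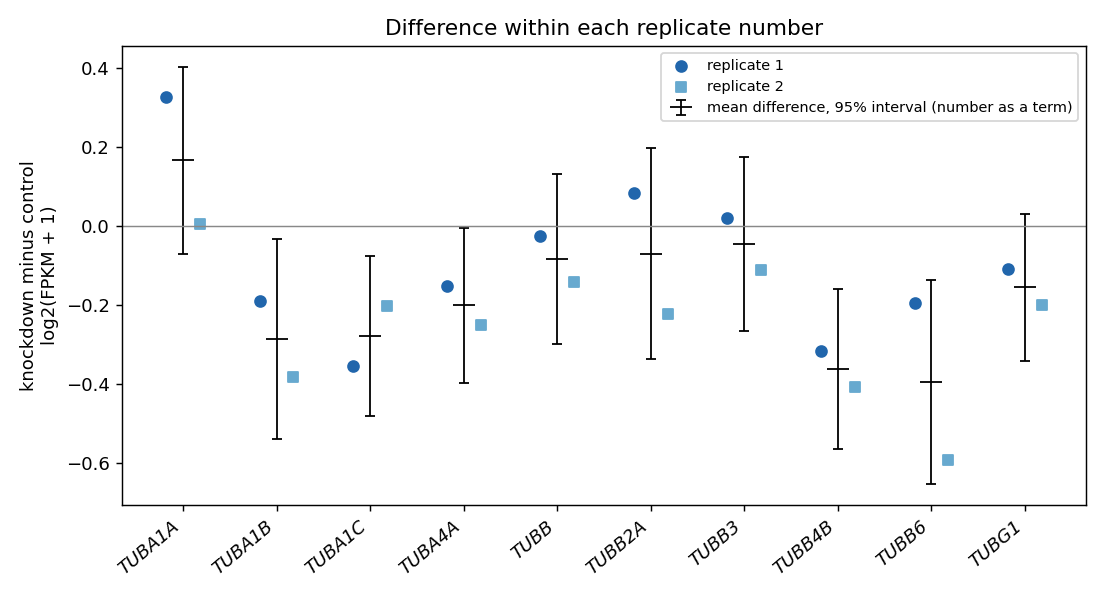
Difference between knockdown and control on the log2(FPKM + 1) scale within replicate 1 (circles) and replicate 2 (squares), with the mean and its 95% interval from limma with the run as a term. The interval for TUBB4B runs from -0.56 to -0.16 and that for TUBB from -0.30 to 0.13. In that fit 0 of the 10 tubulin genes passed after adjustment.

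Summed over isotypes, both partners of the dimer were lower in the knockdown. Alpha-tubulin came to 1867 and 2022 FPKM in control cells and 1624 and 1602 FPKM after knockdown, a change of -13.0% in run 1 and -20.8% in run 2. Beta-tubulin came to 1281 and 1441 FPKM against 1160 and 1196 FPKM, a change of -9.40% and -17.0%. The 4 libraries did not overlap in either sum, and the exact permutation test over them gave a two-sided p of 0.333, the smallest that 2 against 2 libraries allow. As a share of all FPKM in a library, alpha and beta together took 0.437% and 0.455% in the controls and 0.372% and 0.389% in the knockdown. On that scale the change was -14.8% in run 1 and -14.4% in run 2. The ratio of beta to alpha was 0.686 and 0.713 in the controls and 0.715 and 0.746 in the knockdown, a log2 difference of 0.06 in run 1 and 0.07 in run 2. Without control replicate 2 the log2 difference of summed beta-tubulin was -0.12, against -0.21 with all libraries.

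Within beta-tubulin, the share of TUBB was higher and that of TUBB4B lower in the knockdown. TUBB took 50.9% and 49.9% of summed beta-tubulin in the controls and 55.3% and 54.5% in the knockdown, 4.39 points higher in run 1 and 4.64 in run 2. TUBB4B took 41.0% and 41.8% against 36.3% and 38.0%, a change of -4.67 and -3.79 points. The ratio of TUBB4B to TUBB was thus 0.805 and 0.838 in the controls and 0.657 and 0.698 in the knockdown. TUBB6 took 4.78% and 5.22% against 4.599% and 4.14%, TUBB3 1.96% and 1.77% against 2.20% and 1.97%, and TUBB2A 1.31% and 1.34% against 1.54% and 1.37%. The groups did not overlap in any of these 5 shares; TUBB3 and TUBB2A were separated narrowly. Each had an exact permutation p of 0.333 (two-sided, 0.5 after adjustment over 9 shares), and shares of a class sum to 100% and are not independent.

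Within alpha-tubulin the groups overlapped for every isotype but TUBA4A. TUBA1B took 73.3% and 77.8% of it in the controls and 74.0% and 75.3% in the knockdown, with overlap and with opposite signs in the runs. TUBA1C was at 21.2% and 17.4% against 19.1% and 19.1%, also with overlap and opposite signs. TUBA1A took 3.02% and 2.36% against 4.37% and 2.99%, higher in both runs with groups that overlap. TUBA4A took 2.52% and 2.39% against 2.60% and 2.53%. The named genes held 99.9% of alpha and 99.1% of beta tubulin FPKM in the library where they held least.

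**Figure D3:**
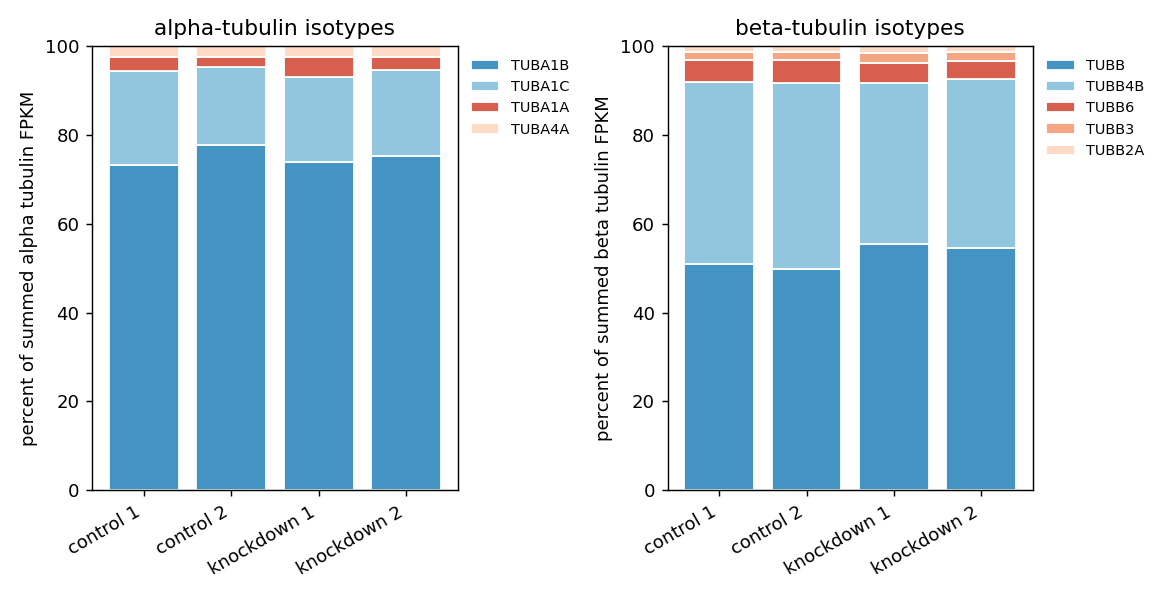
Share of each isotype in summed alpha-tubulin (left) and beta-tubulin (right) FPKM, in percent, 1 bar per library. TUBB widens from 50.9% and 49.9% in the controls to 55.3% and 54.5% in the knockdown while TUBB4B narrows, and TUBA1B spans 73.3% to 77.8% within the controls alone.

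The remaining tubulin genes were low. Of 5 further tubulins that passed the filter, TUBB2B stayed at 4.02 to 4.19 FPKM, TUBB4A at 2.91 to 5.49 and TUBG2 at 6.53 to 12.02 FPKM. Delta-tubulin TUBD1, a centriole gene, had 4.92 and 4.06 FPKM in control cells and 5.69 and 6.78 FPKM after knockdown (limma adjusted p = 0.799, and 0.198 with the run as a term). Epsilon-tubulin TUBE1 was at 8.58 to 8.97 FPKM. TUBA8, TUBAL3, TUBA3C, TUBA3D, TUBA3E, TUBB1 and TUBB8 each stayed under 1 FPKM in every library.

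Around gamma-tubulin, MZT1 and NEDD1 were lower in the knockdown and passed only with the run in the fit. MZT1, a small subunit of the ring complex, had 33.3 and 32.5 FPKM in control cells and 17.7 and 17.5 FPKM after knockdown, 1.87-fold lower (log2 -0.87, standard error 0.12, limma adjusted p = 0.299 without and 0.0087 with the run). Each run showed the same size, -0.88 and -0.86. NEDD1, which carries the ring complex to the centrosome and spindle, had 29.8 and 31.1 FPKM against 21.98 and 19.9 FPKM, 1.45-fold lower (adjusted p = 0.537 and 0.0405). TUBGCP4, another ring subunit, had 14.97 and 14.2 FPKM against 10.8 and 9.94 FPKM and did not pass (0.629 and 0.0679), but passed as lower with the run and median-of-ratios scaling (adjusted p = 0.0261). HAUS6 of the augmin complex also passed as lower only with that scaling or upper-quartile scaling (adjusted p = 0.0477 and 0.046). With the run, median-of-ratios scaling called 541 of 12140 genes lower and upper-quartile scaling 580 of 12136 (4.78%). Of 19 genes of the ring complex and augmin, 2 were called lower and 0 higher with the run, where 1.9% of all genes were called lower. In 8 of the 19 each knockdown library was below each control, against 16.6% of all genes, and the median was -0.13. With a pseudocount of 0.1 and the run, MZT1 alone of these passed (adjusted p = 0.016), where 165 of 12136 genes were called lower.

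The microtubule-associated genes went both ways. With the run in the fit 1 of 28 tested genes passed, CLASP1, a share near the 3.44% of all genes called in that fit. CLASP1, which stabilises microtubule plus ends, had 23.9 and 20.7 FPKM in control cells and 16.7 and 13.8 FPKM after knockdown (log2 -0.52, limma adjusted p = 0.628 and 0.0403). It did not pass with a pseudocount of 0.1. MAP2 was given above (log2 -0.53, adjusted p = 0.781 and 0.106), and MAPRE1, the plus-end protein EB1, had 95.7 and 121 FPKM against 125 and 143 FPKM (log2 0.31, adjusted p = 0.822 and 0.0903). MAPRE1 passed as higher with the run and totals without mitochondrial genes (adjusted p = 0.036), where 308 of 12134 genes were called higher. The median of the list was 0.00, with 14 genes higher and 14 lower on average. In 10 of the 28 each knockdown library was below each control, and in 8 each was above. Over all 12136 genes tested those counts were 2010 (16.6%) and 2349, both smaller shares than in this list.

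Genes that fold, modify or degrade tubulin had 0 members past the threshold in either limma fit, where 0.0% of all genes passed without and 3.44% with the run. In lists of this size that share amounts to few genes. Of 22 folding genes (chaperonin, prefoldin and tubulin cofactors), 15 were lower and 7 higher on average, with a median of -0.08. Among all 12136 genes tested, 5787 were lower and 6349 higher, with a median of 0.01. PFDN6, a prefoldin subunit, had 169 and 155 FPKM in control cells and 133 and 135 FPKM after knockdown, TBCEL had 8.06 and 10.8 FPKM against 7.16 and 7.65 FPKM, and the cofactor TBCC had 7.73 and 9.26 FPKM against 9.16 and 11.7 FPKM. Of 17 tested modifying enzymes, 11 were higher and 6 lower, with a median of 0.07. CCDC23 (SVBP), the partner of the enzymes that remove the tyrosine of alpha-tubulin, had 14.5 and 15.1 FPKM against 17.8 and 18.4 FPKM (log2 0.27, adjusted p = 0.808, and 0.170 with the run), TTLL11 5.25 and 3.51 against 5.25 and 4.97 FPKM, and TTLL12 21.1 and 24.3 against 18.3 and 21.1 FPKM.

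In the tubulin mRNA decay pathway, 9 of 11 genes were lower on average, with a median of -0.05, where 5787 of all 12136 genes were lower. In 3 of the 11 each knockdown library was below each control, and in 2 each was above. Among all 12136 genes those counts were 2010 and 2349. TTC5, the factor that reads the nascent start shown above, had 13.99 and 15.01 FPKM in control cells and 13.6 and 13.2 FPKM after knockdown (log2 -0.10, limma adjusted p = 0.940, and 0.604 with the run). The deadenylase subunits CNOT8 and CNOT6 had 61.5 and 42.3 against 44.6 and 35.6 FPKM and 36.3 and 38.6 against 29.004 and 30.6 FPKM (adjusted p = 0.854 and 0.760, and 0.0874 and 0.0924 with the run). CNOT8 passed as lower with the run and median-of-ratios or upper-quartile scaling (adjusted p = 0.0465 and 0.0386). Those fits called 541 of 12140 and 580 of 12136 genes lower. The groups of CNOT8 overlapped, with 44.6 FPKM in knockdown replicate 1 above 42.3 FPKM in control replicate 2.

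**Figure D4:**
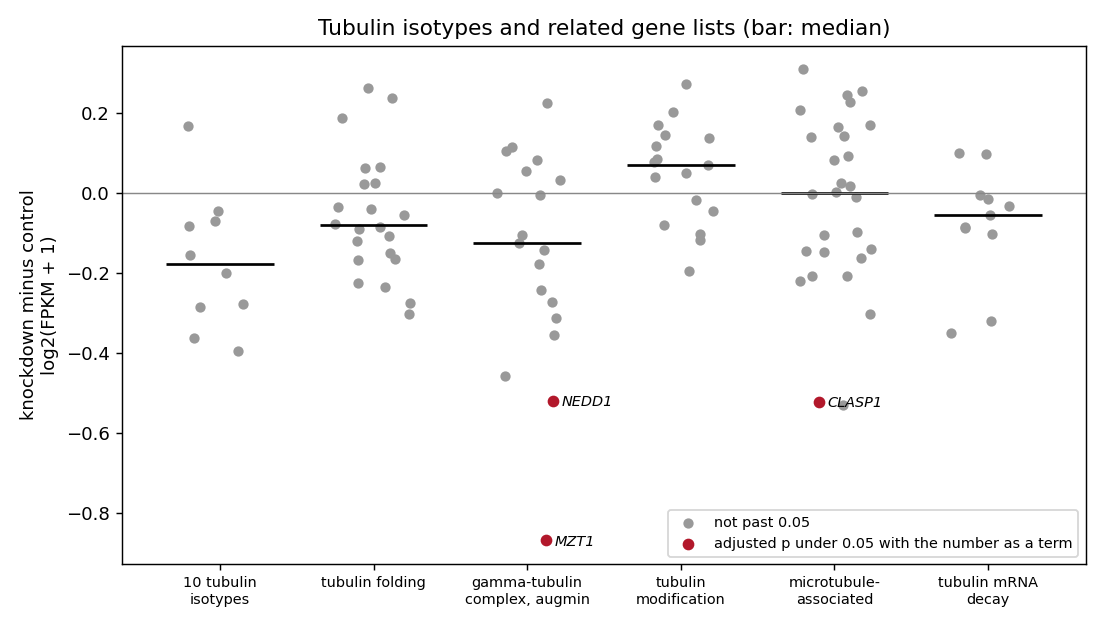
Difference between knockdown and control on the log2(FPKM + 1) scale for the 10 tubulin isotypes and the tested genes of 5 related lists, 1 point per gene, with the median as a bar. Red points passed limma at an adjusted p under 0.05 with the run as a term: MZT1 at -0.87, NEDD1 at -0.52 and CLASP1 at -0.52.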

How the data were processed

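RNA was sequenced from 2 control and 2 AURKA knockdown libraries of MDA-MB-231 cells. The authors deposited 1 table per library of transcript values without a named unit, read here as FPKM from the values. Per the submitters' processing notes, hg38 was the build and HTSeq 0.8.0 and bcl2fastq 2.19 were used; which program computed FPKM is not stated there. Loci in the files fit GRCh37 (one on chromosome 4 ends at 191013719) and start from 0, since end minus start equalled the transcript length in 435 of 872 single-exon genes and end minus start plus 1 in 23. The TUBB locus is thus chromosome 6, 30687978 to 30693203, TUBB4B chromosome 9, 140135665 to 140142222, TUBB6 chromosome 18, 12307668 to 12377313, and TUBA1B chromosome 12, 49521565 to 49525180 (1-based). In the files the loci of TUBB3, TUBB4B, TUBB6 and TUBG1 each take in 1 other gene and that of TUBA4A 3. Strand is not stated, so overlapping genes cannot be told apart.

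The 81412 transcripts in all 4 tables were summed to 20137 genes. limma 3.58.1 (R 4.3.3, trend) was fitted to log2(FPKM + 1), two-sided, on the 12136 genes that reached 1 FPKM in 2 or more libraries, with a threshold of 0.05. The fit was also run on simulated data built from the levels and spread of these 4 libraries, with outcomes not reported here. This scale understates changes of low genes. Depth was estimated from the value of 1 read in single-transcript genes longer than 2000 bases, from peaks of 80 to 117 genes, so it is rough. All named isotypes are reported, and of each related list the genes that passed in either fit and the 3 with the largest absolute difference. Members and lists were chosen with earlier results of these data known. The coding ends of the alpha isotypes are not reported here. Alternatives covered pseudocount, filter, scaling, transcript choice, the run and each library.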

Additional observations from a re-analysis of the deposited data

How the results depend on the processing

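The samples share replicate numbers 1 and 2, taken here, from row order and transcript set, as quantification runs; no label names a run. Across genes, same-numbered libraries deviated together (r = 0.645). With the replicate block, limma called 417 of 12136 genes (3.44%) against 0 without it, 3 against 0 related genes and 0 against 0 isotypes. Related genes are the tested ones of the lists above. They comprise 2 beta and 3 other tubulins, 22 folding, 19 ring complex and augmin, 17 modifying, 28 microtubule-associated and 11 decay genes. The fits with the block tested 12134 to 12140 genes in all. The limma adjusted p of AURKA (log2 -2.22) was 0.000696 with the block and 0.0819 without it. With the block, median-of-ratios scaling gave 896 genes and 6 related genes (AURKA -2.24), a pseudocount of 0.1 gave 287 and 1 (AURKA -2.27), upper-quartile scaling (added after seeing the data) 1074, 6 and 1 isotype (AURKA -2.22), and totals without mitochondrial genes (also added then) 545, 4 and 1 isotype (AURKA -2.19). Without the block, a filter at 5 FPKM called 1 gene, median-of-ratios scaling 3 (AURKA -2.24) and totals without mitochondrial genes 1. Leaving out each library called 6 to 14 genes, with AURKA between -2.38 and -2.06. The cause of these changes was not tested. Leaving out each library moved TUBA1A from -0.11 (without knockdown replicate 1) to 0.44, TUBB2A from -0.16 to 0.025 (without control replicate 2) and TUBB3 from -0.10 to 0.010 (without knockdown replicate 2), so the sign turned. For the other 7 isotypes and both sums every alternative kept the sign, but not the size: without control replicate 2, TUBB was at -0.01, TUBB6 at -0.25, TUBA1B at -0.18 and summed beta-tubulin at -0.12. The share of TUBB was 3.98 to 5.05 points higher and the difference for TUBB4B was -5.07 to -3.40 points. With 2 libraries a group, no exact test could pass 0.05.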

Other observations

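The split of TUBA1C between its transcripts followed the replicate number more than the group. ENST00000549183 took 44.6% of the gene in control replicate 1 and 40.8% in knockdown replicate 1, but 24.9% and 26.1% in the replicate 2 libraries. The other main transcript, ENST00000301072, took 55.3% and 59.2% in replicate 1 and 75.0% and 73.9% in replicate 2. The 2 main transcripts of TUBB kept their split in the same libraries: ENST00000327892 took 54.6% to 58.2% of that gene. For TUBA1A, ENST00000301071 took 62.6%, 59.8% and 60.4% in control replicate 1 and the knockdown libraries and 46.4% in control replicate 2.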
